A study of Homo sapiens with 4 samples.

Results

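The genes described here are the receptor tyrosine kinases MET, MST1R, EGFR, ERBB2 and ERBB3 and the epidermal growth factor (EGF) family ligands AREG, EREG, HBEGF, TGFA and BTC, 10 genes in all. Their transcripts were measured in MKN45, an established human gastric adenocarcinoma line labelled as gastric epithelial cells, either untreated or 8 h after 10 µg/ml of lipopolysaccharide (LPS), a glycolipid in the outer membrane of bacteria, here from Helicobacter pylori. The untreated cells received fresh medium at the same time, and both groups had 2 Affymetrix arrays. An array reports probe sets, each a group of short probes against 1 transcript region, and the members were all probe sets that the platform annotation assigned to 1 of the 10 symbols alone. The rule found 9 of 19775 named genes, with 33 of 54613 probe sets. The annotation used here assigned no probe set to AREG alone, so AREG was not analysed here. The gene symbols were listed with earlier results of these data known.

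Receptor tyrosine kinases sit in the cell membrane and switch on when a ligand pulls 2 receptor chains together. MET is the receptor for hepatocyte growth factor, and MST1R (also called RON) is its close relative, the receptor for macrophage stimulating protein. EGFR, ERBB2 and ERBB3 form mixed pairs, in which ERBB2 has no known ligand and ERBB3 has little kinase activity of its own but recruits phosphoinositide 3-kinase strongly. The EGF family ligands are made as membrane-bound precursors and are released by metalloproteases, and in the stomach they act on epithelial growth and repair. MKN45 is known as a line with amplified MET.

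RefSeq promoters were available for 9 of the 10 genes, as the 250 bases before each annotated start (11 windows, since EGFR and TGFA have 2 starts each, GRCh38.p14); the table held none for ERBB3. MET is shown because its signal stood highest, and EREG because it was the ligand with the smallest p. Capitals mark matches on either strand to any of 4 motifs. The GC box was searched as GGGCGG. The TATA box, which places the start in some promoters, was searched as TATAAA. The AP-1 motif, bound by Fos and Jun proteins, was searched as TGANTCA. The last was the NF-kB consensus, whose factors mediate many responses to LPS.
MET, chr7:116671946-116672195, plus strand: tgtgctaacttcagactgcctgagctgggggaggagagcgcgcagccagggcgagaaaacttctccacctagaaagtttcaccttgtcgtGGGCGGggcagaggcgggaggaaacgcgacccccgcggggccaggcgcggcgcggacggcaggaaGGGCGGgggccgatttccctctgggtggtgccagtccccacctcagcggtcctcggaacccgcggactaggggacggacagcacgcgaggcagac
EREG, chr4:74364895-74365144, plus strand: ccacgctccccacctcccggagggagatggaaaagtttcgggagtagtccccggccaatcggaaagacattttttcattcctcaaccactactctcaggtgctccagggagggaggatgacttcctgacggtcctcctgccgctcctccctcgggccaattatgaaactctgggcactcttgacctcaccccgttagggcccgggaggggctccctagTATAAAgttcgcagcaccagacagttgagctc
The MET window held 2 GC boxes, starting 160 and 95 bases upstream, and no TATA box, with 68.4% G+C and 24 CpG. The EREG window had 58% G+C, 11 CpG and a TATA box starting 32 bases upstream. The median window among all 35116 RefSeq promoters also had 58% G+C and 11 CpG.

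Of the 11 member windows, 6 held a GC box, against 42.6% of all promoters. A TATA box was found in 3 windows (10.7% of all promoters), those of EREG, AREG and the inner start of EGFR. The AP-1 letters were in 2 windows (6.57% of all promoters), those of ERBB2 and the inner EGFR start. The NF-kB consensus was in 2 windows (9.96% of all promoters), those of BTC and of 1 TGFA start, and in neither window printed here. A match of letters is a description of the window and not a site of binding.

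In the untreated cells MET gave by far the highest signal of these genes. Its brightest probe set, 203510_at, read 14.21 and 14.21 (log2 level) without treatment and 14.22 and 14.19 with LPS. The mean of the untreated arrays ranked 146 of 54613 probe sets, at the 99.7 percentile, and when each gene was represented by its brightest probe set MET ranked 67 of 19775 genes. On single arrays the rank was 145 and 141 without treatment and 144 and 146 with LPS. The groups overlapped, and the difference was -0.011 with a 95% interval of -0.076 to 0.054. The 100 brightest probe sets of the array began at 14.39, just above MET, and whether the signal still rises in proportion to the transcript at such levels was not tested.

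The other genes followed well below. In order of the brightest probe set, the untreated levels (log2, mean ± SD, n = 2) were 10.82 ± 0.05 for ERBB3, 10.56 ± 0.11 for TGFA, 10.45 ± 0.09 for EGFR, 10.29 ± 0.03 for MST1R, 9.82 ± 0.15 for ERBB2, 9.42 ± 0.08 for HBEGF, 8.70 ± 0.0090 for EREG and 4.24 ± 0.02 for BTC. TGFA and EGFR overlapped between arrays, and every other pair of neighbours in this order was separated on both arrays. Probe sets bind their transcripts with different efficiency, so the order is one of signals and not of transcript numbers per length. BTC, which encodes betacellulin, lay at the 5.06 percentile of all probe sets, and its other probe set at the 3.88 percentile.

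**Figure D1:**
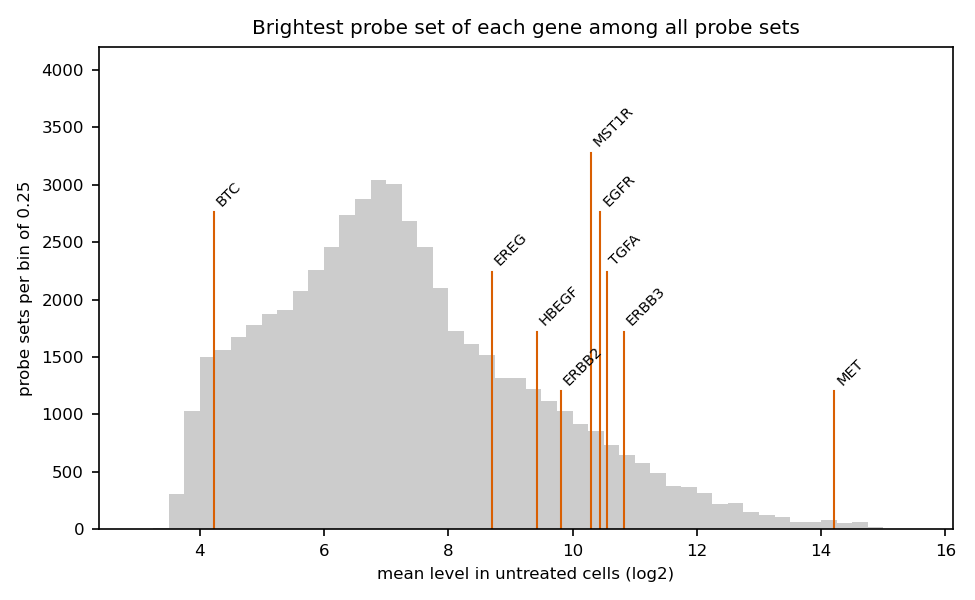
Histogram of the mean level in untreated cells (log2, x axis) for 54613 probe sets, in bins of 0.25 (y axis, number of probe sets); vertical lines mark the brightest probe set of each of the 9 genes, and their heights carry no value. MET stands at 14.21 in the far right tail and BTC at 4.24 in the left part, while the other 7 genes lie between 8.70 and 10.82.

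LPS-treated cells were set against untreated ones to ask whether transcripts of these receptors and ligands moved within 8 h. No probe set of these genes rose or fell past the threshold, an adjusted p under 0.05 in limma over all probe sets tested. A probe set was tested if its mean over the 4 arrays reached the 30 percentile of all probe sets (6.06), which 29 of the 33 did. The 4 under it were both probe sets of BTC and 2 of the 3 of ERBB2. The background was 3 of 38229 probe sets called (0.00785%), all higher, so a count of 0 of 29 was near it. At an unadjusted p under 0.05, the members gave 3 in the upward direction and 3 in the downward, where all tested probe sets gave 3.69% higher and 8.02% lower. The median difference was 0.02 over the 29 members and -0.0039 over all tested probe sets.

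The split of calls over all probe sets moved with the scaling of the arrays, from 3 higher and 0 lower to 4 and 4 under cyclic loess or quantile normalization, and 6 and 11 once array medians were centred, and it was 5 and 6 without untreated replicate 1. The member count was 0 in each of these. Array medians were 7.004 to 7.034. Untreated cells carried epithelial transcripts as labelled: EPCAM, CDH1, KRT8, KRT18 and KRT19 lay at or above the 99.1 percentile, while CLDN4 lay at 84.2 and KRT20 at 27.7. The 5 gastric or intestinal markers lay between the 68.7 and 98.5 percentiles. Of the 4 leukocyte markers measured, PTPRC and CD14 lay at the 22.0 and 22.4 percentiles, CD53 at 73.1 and LYZ, the lysozyme gene, at 98.7. The 7 fibroblast or endothelial markers, DCN and PDGFRB among them, lay between the 34.3 and 80.8 percentiles. Over these lists, both LPS arrays were higher for CD53 (by 0.33), DCN (0.20), PDGFRB (0.18), KRT20 (0.18), KRT18 (0.036) and TFF1 (0.032). They were lower for the gastric or intestinal markers GATA6 (-0.22) and TFF3 (-0.12), and for LYZ (-0.15) and PTPRC (-0.048). The arrays of the remaining markers overlapped, and the part of these markers in the differences below was not tested. The 24 probe sets of poly-A spike-ins, bacterial transcripts added before labelling, were all lower on both LPS arrays (mean difference -0.48), and their part in the differences below was not tested. In RNA from whole cultures, fewer cells with a transcript and less of it per cell cannot be told apart. Nothing in the labels ties an array to its own experiment, so p-values measure the spread between these arrays.

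**Figure D2:**
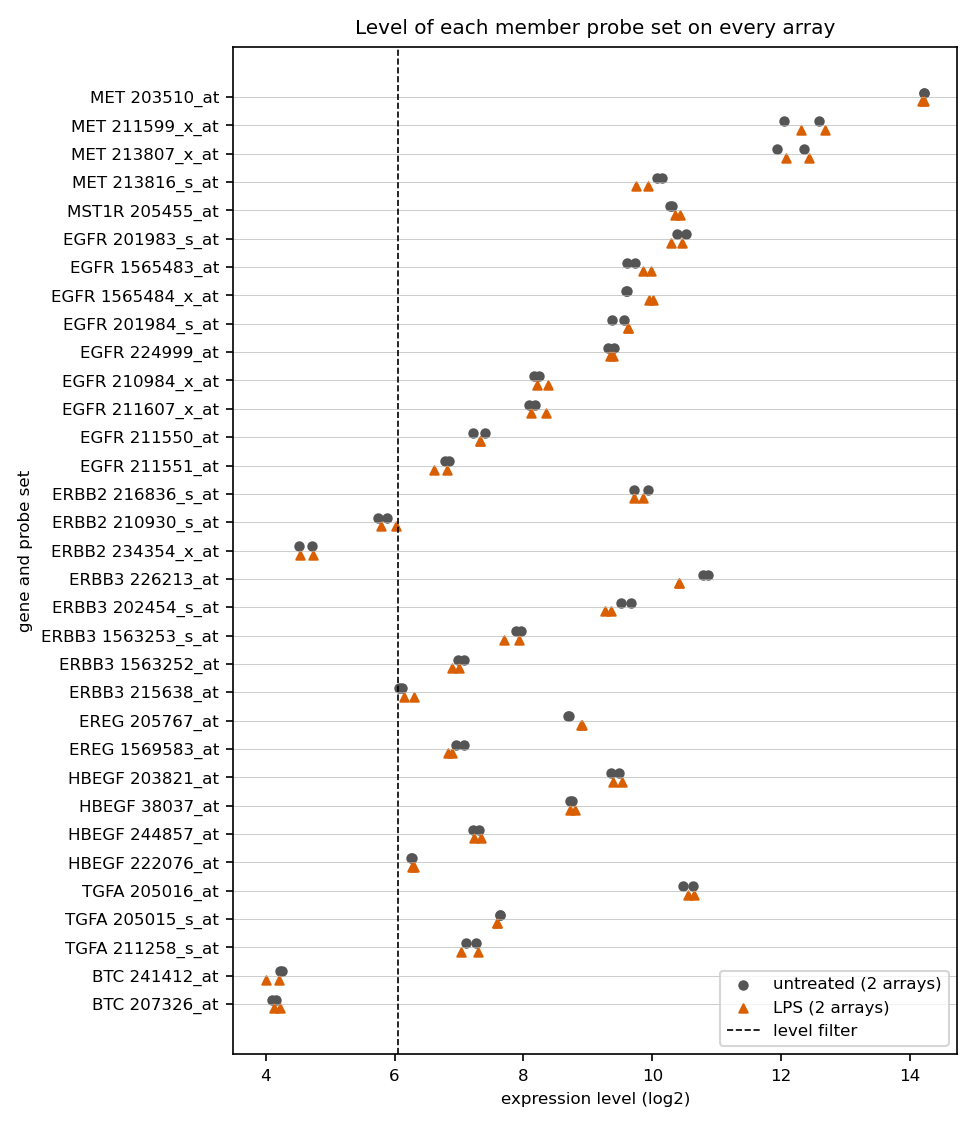
Expression level (log2, x axis) of each of the 33 probe sets (y axis) on the 2 untreated arrays (circles) and the 2 LPS arrays (triangles), with the level filter of 6.06 as a dashed line. MET 203510_at sits at 14.19 to 14.22 on all 4 arrays, and the LPS arrays of ERBB3 226213_at stand apart to the left of the untreated ones.

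Both LPS arrays lay above both untreated arrays for 6 of the 29 tested probe sets and below them for 5, where 19.1% and 24.2% of all tested probe sets did so. The shares in these genes were therefore close to those of the array as a whole. Fold changes of the tested members ran from 0.754 to 1.30, and 19 of the 33 probe sets differed by less than 0.1 on the log2 scale.

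Among the receptors, ERBB3 had the smallest p. Its brightest probe set, 226213_at, read 10.86 and 10.78 without treatment and 10.41 and 10.42 with LPS. Both LPS arrays were below both untreated arrays and close to each other. The difference was -0.41 (SE 0.06, 95% interval -0.56 to -0.26), a level 1.33-fold lower, which did not pass (limma adjusted p = 0.170, and 0.102 to 0.910 over the alternatives). The highest of these p-values came without LPS replicate 2, which leaves 1 LPS array that is assumed to vary like the untreated ones, so that p says nothing about stability. There the difference was -0.41, and the difference was -0.44 to -0.37 with any array left out.

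The second ERBB3 probe set, 202454_s_at, also had both LPS arrays below the untreated ones. It read 9.66 and 9.52 without treatment and 9.36 and 9.26 with LPS, a difference of -0.28 (95% interval -0.48 to -0.08, limma adjusted p = 0.308). The 3 fainter probe sets did not follow as a group. The difference was -0.11 for 1563253_s_at and -0.09 for 1563252_at, with overlapping arrays, and 0.14 for 215638_at, which lay just above the filter at 6.09 and had both LPS arrays higher. Probe sets of 1 gene read the same RNA and are not replicates.

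By a likeness measure, the root mean square difference over the 4 arrays after each probe set was centred on its own mean, the brightest probe sets nearest to ERBB3 226213_at among 16252 genes were those of NAV1 (0.0135), NBR1 (0.0165) and MMUT (0.0174). Their differences were -0.42, -0.40 and -0.37. With 4 arrays such likeness describes these libraries only.

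EGFR had 9 probe sets, all tested, and they disagreed. The brightest, 201983_s_at, read 10.52 and 10.38 without treatment and 10.45 and 10.29 with LPS. These arrays overlapped, and the difference was -0.08 (95% interval -0.27 to 0.12, limma adjusted p = 0.758). The next in level, 1565483_at and 1565484_x_at, have the same sequence record in the annotation. The first read 9.60 and 9.73 without treatment and 9.98 and 9.86 with LPS. The second read 9.60 and 9.61 without treatment and 10.01 and 9.96 with LPS. Both had the LPS arrays on top.

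The difference of 1565484_x_at was 0.38 (SE 0.07, 95% interval 0.22 to 0.54), a level 1.30-fold higher, and the difference of 1565483_at was 0.25. Neither passed, with limma adjusted p-values of 0.183 and 0.340. The probe set 201984_s_at also had both LPS arrays higher (0.15, limma adjusted p = 0.529). The remaining 5 differed by -0.11 to 0.10, with overlapping arrays. Names ending in _x_at or _s_at mark probe sets that may bind transcripts of more than 1 gene or several variants of 1 gene, and 15 of the 33 members were of these kinds.

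**Figure D3:**
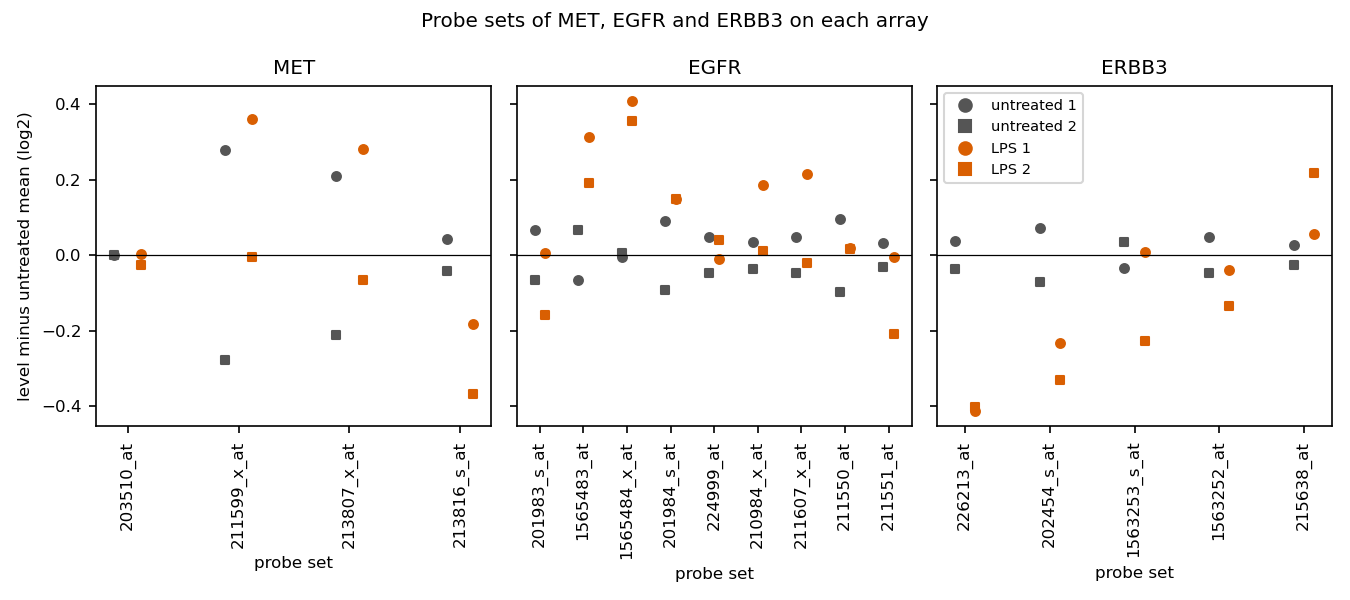
Level of each probe set of MET, EGFR and ERBB3 on every array, minus the mean of the untreated arrays (log2, y axis); probe sets run along the x axis from brightest to faintest, grey is untreated, orange is LPS, circles are replicate 1 and squares replicate 2. The LPS points of ERBB3 226213_at lie near -0.41 and those of EGFR 1565484_x_at near 0.38, while the MET _x_at probe sets spread by replicate number in both groups.

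The remaining MET probe sets spread more between arrays of a group than the brightest. The probe set 211599_x_at read 12.59 and 12.04 without treatment and 12.68 and 12.31 with LPS, and 213807_x_at read 12.35 and 11.93 without treatment and 12.43 and 12.08 with LPS. In both groups the array of replicate 1 was the higher, by 0.56 and 0.37 for 211599_x_at and by 0.42 and 0.35 for 213807_x_at. Those gaps exceeded the differences between the groups, which were 0.18 and 0.11 with overlapping arrays. Between same-numbered arrays LPS was the higher, by 0.082 and 0.27 for 211599_x_at and by 0.071 and 0.14 for 213807_x_at. With replicate number added to the fit, the 95% intervals were 0.044 to 0.31 and 0.0014 to 0.21 (limma adjusted p = 0.243 and 0.327). The labels do not say that a number marks a shared experiment. The faintest, 213816_s_at, read 10.16 and 10.07 without treatment and 9.93 and 9.74 with LPS. Its LPS arrays were both lower, at -0.28 (95% interval -0.48 to -0.07, limma adjusted p = 0.324), against -0.011 for the brightest MET probe set.

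MST1R had 1 probe set, which read 10.27 and 10.31 without treatment and 10.34 and 10.43 with LPS. Both LPS arrays were higher, by a small margin. The difference was 0.098 (95% interval -0.06 to 0.26, limma adjusted p = 0.607), and it was 0.053 without LPS replicate 2. ERBB2, the partner receptor, read 9.71 and 9.93 without treatment and 9.72 and 9.85 with LPS on its only tested probe set, 216836_s_at. The groups overlapped, with a difference of -0.033 (95% interval -0.26 to 0.19). Its other probe sets, at 5.81 and 4.62, differed by 0.091 and 0.012.

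Among the ligands, EREG, which encodes epiregulin, had the smallest p. Its probe set 205767_at read 8.70 and 8.71 without treatment and 8.91 and 8.89 with LPS. The arrays within each group nearly coincided and the groups did not overlap. The difference was 0.19 (SE 0.07, 95% interval 0.02 to 0.37), a level 1.14-fold higher. It did not pass (limma adjusted p = 0.387, and 0.281 to 0.453 over the alternatives that kept all arrays). With any array left out, the difference was 0.19 to 0.20. The other EREG probe set, 1569583_at, went the other way, from 6.95 and 7.07 to 6.83 and 6.88, a difference of -0.15 (limma adjusted p = 0.508).

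HBEGF, the heparin-binding EGF-like growth factor, differed little on any probe set. The brightest, 203821_at, read 9.48 and 9.36 without treatment and 9.39 and 9.53 with LPS, a difference of 0.040 (95% interval -0.16 to 0.24). The other 3 differed by 0.02 to 0.03, and the arrays overlapped on all 4. Its brightest interval leaves room for a rise of 0.24 or a fall of 0.16.

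TGFA, transforming growth factor alpha, read 10.63 and 10.48 without treatment and 10.55 and 10.64 with LPS on 205016_at. The groups overlapped, with a difference of 0.040 (95% interval -0.14 to 0.22). On 205015_s_at the LPS arrays were both lower, by only -0.041, and 211258_s_at differed by -0.028 with overlapping arrays. BTC read 4.25 and 4.22 without treatment and 4.21 and 4.01 with LPS on 241412_at, and 4.10 and 4.16 against 4.23 and 4.13 on 207326_at. These values lie near the bottom of the array's range and were under the filter, so BTC was not tested.

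**Figure D4:**
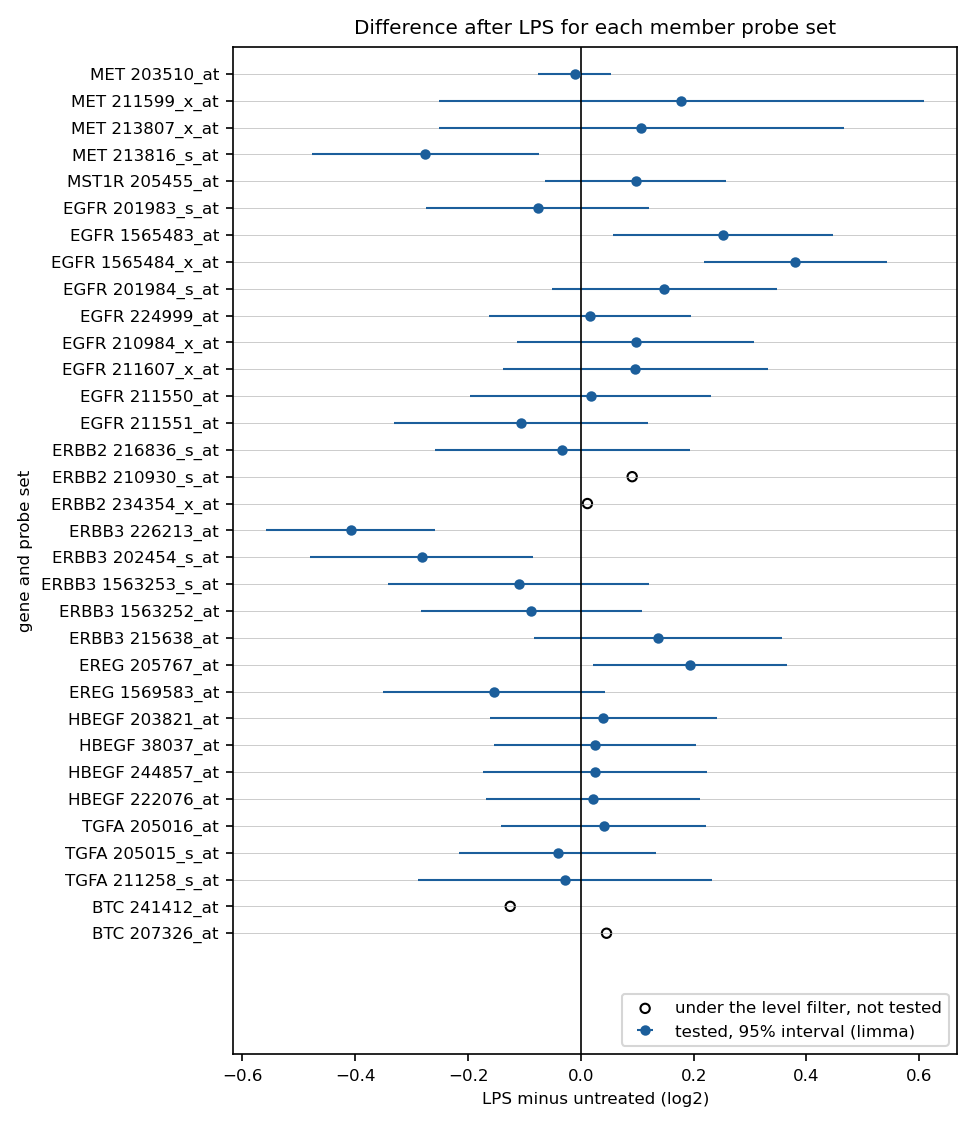
Difference between LPS and untreated (log2, x axis) for each probe set (y axis), with 95% intervals from limma for the 29 tested probe sets (filled points) and none for the 4 under the level filter (open circles). Intervals that leave out 0 belong to MET 213816_s_at, EGFR 1565483_at and 1565484_x_at, ERBB3 226213_at and 202454_s_at and EREG 205767_at, and none of these passed after adjustment.

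The rest of the pathway was followed through a list of 66 genes, of which 59 had a probe set here. In all, 0 of 147 tested probe sets passed in limma. An unadjusted p under 0.05 was reached by 9 in the upward and 13 in the downward direction. Over all tested probe sets the shares were 3.69% higher and 8.02% lower. The upward share of the list lay above that and the downward share near it, and whether they differ was not tested. The same shares are the reference for the group counts below. Some of the counted probe sets belong to the same gene and are not replicates. The median difference of the list was 0.01, against -0.0039 over all tested probe sets. The members, the list and the array as a whole were thus alike in having few or no calls.

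Adaptors and signal relays carry the signal from the receptor to the kinases inside the cell, and 0 of their 52 tested probe sets passed; an unadjusted p under 0.05 was reached by 2 in the upward and 6 in the downward direction. PIK3R1, the regulatory subunit of phosphoinositide 3-kinase, read 10.97 and 11.11 without treatment and 10.71 and 10.60 with LPS, a difference of -0.38 (limma adjusted p = 0.191). Both LPS arrays were lower on all 3 of its probe sets, where the others differed by -0.17 and -0.53 (limma adjusted p = 0.477 and 0.170). AKT2, a kinase downstream of it, read 9.76 and 9.80 without treatment and 10.07 and 10.10 with LPS, a difference of 0.30 (limma adjusted p = 0.232). Its other 6 probe sets differed by 0.01 to 0.13.

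Genes of receptor restraint and turnover had 0 of 35 tested probe sets past the threshold, and an unadjusted p under 0.05 was reached by 0 in the upward and 2 in the downward direction. CBLB, a ubiquitin ligase that marks receptors for breakdown, read 8.01 and 8.08 without treatment and 7.67 and 7.71 with LPS, a difference of -0.36 (limma adjusted p = 0.218), and its other 2 probe sets lay under the filter. EPS15, an endocytic adaptor, differed by -0.16 and by -0.20 on its other probe set.

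Proteases that release or activate ligands, with their inhibitors, had 0 of 19 past the threshold, and an unadjusted p under 0.05 was reached by 2 in the upward and 1 in the downward direction. PLAU, the plasminogen activator urokinase, read 8.64 and 8.60 without treatment and 8.90 and 9.01 with LPS. The LPS arrays were higher on both of its probe sets, by 0.33 and 0.46 (limma adjusted p = 0.256 and 0.271). ADAM17, the main sheddase of EGF family precursors, read 9.32 and 9.30 without treatment and 9.13 and 9.08 with LPS. The LPS arrays were lower, by -0.20 (limma adjusted p = 0.371), and its other probe sets differed by -0.17 and 0.02.

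Of the 23 probe sets of receptors and ligands outside the 10 symbols, only 9 reached the filter. MST1 read 7.94 and 7.79 in untreated cells on its probe sets, at the 67.6 and 65.1 percentiles, and differed by 0.011 and 0.082. HGF, the gene of hepatocyte growth factor, read 7.31 on its brightest probe set (56.3 percentile) and differed by -0.018. Its other probe sets were under the filter. None of the 9 passed in limma, and an unadjusted p under 0.05 was reached by 1 upward and 0 downward. ERBB4, the remaining ERBB receptor, differed by 0.18 at a level of 6.22 in untreated cells, with -0.10 to 0.08 on its 3 probe sets under the filter, and the ligand NRG4 by 0.13 at 6.16. Partners at the membrane had 0 of 32 past the threshold. An unadjusted p under 0.05 was reached by 4 upward, all of ITGB4 or MUC1, and 4 downward, all of CD44. CD44 differed by -0.020 on its brightest probe set, and every other CD44 probe set was also lower. The largest of its differences was -0.39 on 1565868_at (limma adjusted p = 0.210), with both LPS arrays lower. ITGB4, an integrin that associates with MET and ERBB2, differed by 0.15 where it was brightest and by -0.15 to 0.24 elsewhere. MUC1, a membrane mucin that binds EGFR, differed by 0.091, and by 0.23 and 0.22 on fainter probe sets.

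**Figure D5:**
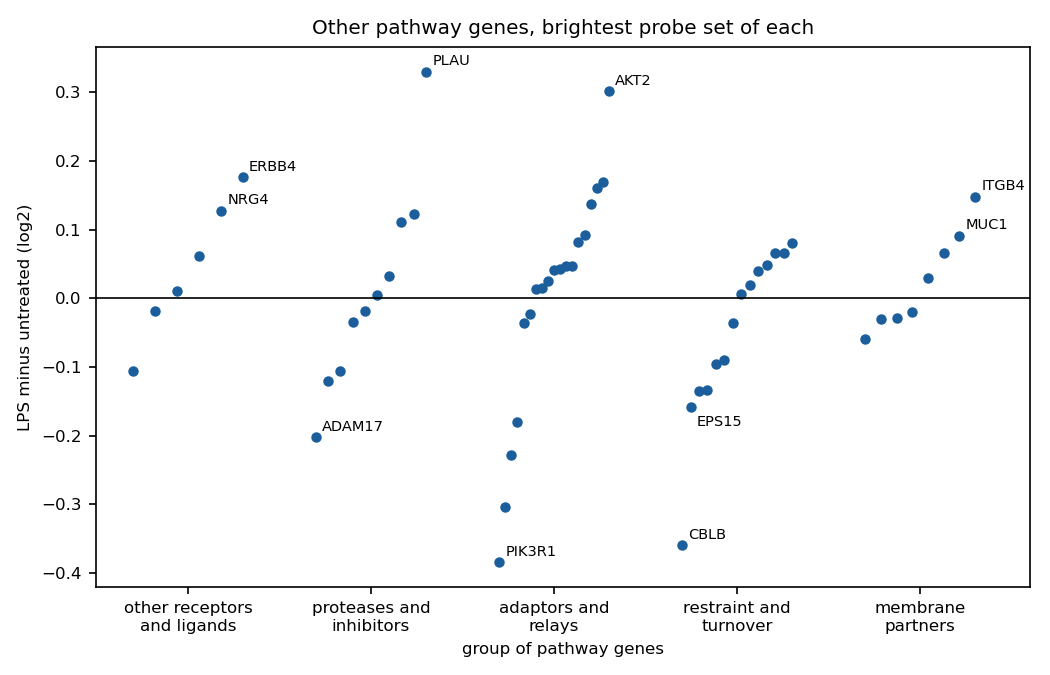
Difference between LPS and untreated (log2, y axis) for the brightest tested probe set of each further pathway gene, in 5 groups (x axis) and sorted within each. Labels mark 10 of the genes named in the text. Values run from -0.38 for PIK3R1 to 0.33 for PLAU, and none passed the threshold.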

How the data were processed

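RNA from untreated and LPS-treated MKN45 cells was labelled with biotin and hybridised to Affymetrix arrays, 2 per group, per the labels' protocols. The titles number the arrays of a group as replicates and do not say whether each had its own culture. The submitters' processing notes name MAS5 and RMA without versions, and which of them the authors used last is not given in the sources used here. What was deposited are log2 levels, to judge by their range, with array medians of 7.004 to 7.034. The distributions were not the same, since quantile normalization moved the difference of MST1R from 0.098 to 0.150 and that of TGFA from 0.040 to 0.090. Scaling of arrays to like medians hides a shift of all transcripts in 1 direction.

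The 62 control probe sets were left out, and 54613 remained. Names came from the platform annotation, which gave 1 symbol for 41091 of them, and 41037 of these matched RefSeq (GRCh38.p14) by Entrez identifier. Probe sets with a mean under the 30 percentile (6.06) were not tested, which left 38229. The groups were fitted with limma 3.58.1 under R 4.3.3 (lmFit, eBayes with an intensity trend, no replicate block), two-sided, with Benjamini-Hochberg adjustment over all 38229 and a threshold of 0.05. Differences are LPS minus untreated, with 95% intervals.

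Members and lists were chosen with earlier results of these data known. Every member was named, and of each pathway group the 2 genes with the smallest p on their brightest probe set, since none passed. CD44, HGF and MST1 were named in addition, after their values were seen. The likeness rule took the 3 genes nearest to the member gene with the smallest p on its brightest probe set. Other settings tried were a level filter at the 50 percentile or none, cyclic loess, quantile normalization or median centring, robust or untrended eBayes, the replicate block, an adjusted p under 0.1, other choices of a gene's probe set, and leaving out each array. The number of arrays limits the precision. Promoter motifs were searched in RefSeq windows; the published NF-kB consensus, with purine and pyrimidine positions, was adopted after a narrower form (GGANTTTCC) had matched 0 of the 11 member windows. Another narrower form was tried before it, and its counts are not given here.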

Additional observations from a re-analysis of the deposited data

How the results depend on the processing

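The count of member probe sets past the threshold was 0 under every alternative run, and so was that of the pathway list. The smallest adjusted p of a member was 0.102 (median centring) to 0.910 (without LPS replicate 2). Leaving out an array leaves its group with 1, assumed to vary like the other group, so those p-values say nothing about stability. Over all probe sets the count of 3 became 5 with a filter at the 50 percentile or robust estimation, 8 after quantile normalization or cyclic loess, 17 after median centring and 9 at an adjusted p under 0.1, and it was 2 to 11 with 1 array left out. MET ranked 67 among genes, 143 on the LPS arrays and 141 to 145 with 1 untreated array.

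Of 114 recomputed gene differences, 99 kept their direction and 15 turned, all of genes with a difference under 0.1. With 1 array left out, MET ranged from -0.026 to 0.0041, EGFR from -0.16 to 0.0045, ERBB2 from -0.14 to 0.075, MST1R from 0.053 to 0.14, HBEGF from -0.033 to 0.11 and TGFA from -0.034 to 0.12. MET also turned to 0.010 under cyclic loess, and ERBB2 to 0.014 under cyclic loess and 0.022 after quantile normalization. Averaged over a gene's probe sets, EGFR turned to 0.092, ERBB2 to 0.023 and TGFA to -0.0095, and EGFR turned to 0.25 on its brightest probe set outside the _x_at and _s_at types. The cause was not tested.

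With the replicate block the count was 3 over all probe sets and 0 among the members, and the adjusted p of ERBB3 was 0.113. Deviations of same-numbered arrays correlated at r = 0.214 across tested probe sets, and the labels do not say that a number marks a shared experiment.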

Other observations

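EREG, AREG and BTC lie side by side on chromosome 4 in the RefSeq gene order, and the chemokine genes from CXCL8 to CXCL2 come before them, with only MTHFD2L and EPGN between CXCL2 and EREG. This stretch was chosen after its values were seen. Across it the differences after LPS were uneven. CXCL8 and CXCL1, which attract neutrophils, rose by 1.73 and 1.99 on their brightest probe sets (log2, limma adjusted p = 0.00295 and 0.000674). The other CXCL8 probe set, 211506_s_at, differed by 1.17 and did not pass (limma adjusted p = 0.123), nor did CXCL3 at 1.02 (0.0579) or CXCL2 at 1.09 (0.123). The fainter CXCL2 probe sets differed by -0.15 and 0.053. PF4, between these genes, differed by 0.072 (limma adjusted p = 0.745). CXCL6, PF4V1, PPBP and CXCL5 lay under the level filter and were not tested, with differences of 0.074, 0.066, 0.087 and -0.28, and both LPS arrays were lower on all 3 probe sets of CXCL5. MTHFD2L, a mitochondrial folate enzyme and the next measured gene, differed by -0.10 on the brightest of its 8 probe sets. Its probe set 220346_at, at 5.20 in untreated cells and under the filter, differed by 0.43 with both LPS arrays higher. The rest differed by -0.15 to 0.15. EREG differed by 0.19, as given above, and BTC lay under the filter. PARM1, on the far side of BTC, differed by 0.20 (limma adjusted p = 0.401) and by 0.04 on its other probe set.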
